A study of Caenorhabditis elegans with 2 samples.

Results

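The 486 regions described here are the weaker tier of candidate DMD-4 binding regions in late embryos of Caenorhabditis elegans. Their ChIP signal was too low for the authors' short list on genome build ce11 but high enough, by rank, for their longer short list on build ce10. They were chosen by signal alone. The 30000 candidate regions of both replicates pooled were ranked by the signal value that the authors' peak caller had given them, in arbitrary units relative to a control. The deposited ce11 list of regions kept by the irreproducible discovery rate procedure (IDR, which compares how replicates rank the same regions) held exactly the top of this ranking, called the stronger tier below. The ce10 list of the same kind was longer by 486 regions, and the 486 candidates directly below the end of the ce11 short list were taken. Of the 486 weaker-tier regions, 478 were found in the ce10 list by their chromosome, width and a signal equal within 0.01%, all within the same ranks there and at most 3 ranks from their ce11 place. The other 8 had no such match, and coordinates were not converted between builds. The following 862 regions, down to rank 2000, are called the next tier.

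The chromatin came from whole hermaphrodite embryos of strain OP418, genotype unc-119(tm4063) III; wgIs418, collected as late embryos 5 h after synchronization by bleaching of eggs. The strain carries a stable transgene that makes DMD-4 with GFP and FLAG tags at its C terminus, and sonicated chromatin was precipitated with an antibody to GFP. There was 1 group with 2 biological replicates, so no conditions could be compared, and an untagged strain was not analysed here. The labels do not say in which cells of the embryo the transgene was active.

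DMD-4 belongs to the DM-domain family, zinc-finger transcription factors that share a DNA-binding domain first described in Drosophila Doublesex and worm MAB-3. In C. elegans several members act in sexually dimorphic neurons, and DMD-4 is known for its sex-dependent presence in phasmid sensory neurons. In ChIP-seq, DNA that is bound, directly or through other proteins, is recovered with the antibody, and the summit is the position within a region where the recovered DNA piles up most.

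To show what these regions look like at the level of DNA, 7 stretches of 201 bp centred on summits of the weaker tier are given below, strong members of each kind. They are read on the + strand of ce11 (RefSeq sequence of WBcel235), 5′ to 3′. Capitals mark exact matches, on either strand, to any of 5 short sequences. These were ACATTGT, a core sequence of DM-domain binding sites, GTTCGA, part of the B box inside tRNA genes, the GA repeat GAGAGA, the 6-mer CGCACA, and the GC repeat GCGCGC.
sdc-2 promoter, first member (chrX:11522218-11522418): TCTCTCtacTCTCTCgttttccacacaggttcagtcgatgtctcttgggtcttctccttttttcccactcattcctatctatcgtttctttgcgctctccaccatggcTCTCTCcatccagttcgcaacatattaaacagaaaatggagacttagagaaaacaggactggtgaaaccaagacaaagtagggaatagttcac
F17C11.4 promoter, rank 661 (chrV:10951932-10952132): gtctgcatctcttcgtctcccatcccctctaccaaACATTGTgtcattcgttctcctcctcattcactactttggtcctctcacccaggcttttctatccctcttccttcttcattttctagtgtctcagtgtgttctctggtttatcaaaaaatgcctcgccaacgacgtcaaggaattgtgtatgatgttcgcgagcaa
rgef-1 promoter, rank 752 (chrV:9561786-9561986): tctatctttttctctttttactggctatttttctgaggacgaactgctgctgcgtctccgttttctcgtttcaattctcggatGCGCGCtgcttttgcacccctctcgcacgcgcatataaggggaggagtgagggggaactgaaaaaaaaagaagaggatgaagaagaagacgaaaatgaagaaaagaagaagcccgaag
tRNA-Ala gene, rank 660 (chrII:7003031-7003231): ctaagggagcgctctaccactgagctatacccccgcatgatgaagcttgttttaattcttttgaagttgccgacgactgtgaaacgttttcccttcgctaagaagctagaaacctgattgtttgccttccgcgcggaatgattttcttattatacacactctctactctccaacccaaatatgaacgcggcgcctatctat
snoRNA gene F12F6.11, rank 701 (chrIV:11549781-11549981): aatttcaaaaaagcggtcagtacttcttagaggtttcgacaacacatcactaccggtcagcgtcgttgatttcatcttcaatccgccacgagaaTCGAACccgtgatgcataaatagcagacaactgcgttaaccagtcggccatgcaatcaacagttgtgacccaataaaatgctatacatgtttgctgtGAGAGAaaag
mir-53, rank 667 (chrIV:11027600-11027800): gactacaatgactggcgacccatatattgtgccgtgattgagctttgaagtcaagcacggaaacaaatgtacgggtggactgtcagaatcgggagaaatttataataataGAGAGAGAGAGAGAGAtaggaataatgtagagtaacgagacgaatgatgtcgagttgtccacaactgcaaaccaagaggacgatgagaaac
unc-119 intron, rank 727 (chrIII:10903426-10903626): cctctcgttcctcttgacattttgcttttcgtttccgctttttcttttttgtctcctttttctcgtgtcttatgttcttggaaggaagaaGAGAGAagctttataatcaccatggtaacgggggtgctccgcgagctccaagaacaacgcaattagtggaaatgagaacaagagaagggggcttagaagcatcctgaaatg

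The sdc-2 stretch held the GA 6-mer 3 times on the complementary strand, and the mir-53 stretch held it as 1 uninterrupted run. The F17C11.4 stretch was shown because it carried the DM core, which was found in 2.06% of the members and 2.76% of all candidates. The tRNA-Ala stretch, with its summit 67 bp upstream of the gene, carried none of the 5 sequences. It covered only the start of that gene (chrII:7002993-7003064, minus strand), so a match in the rest of the gene could not be seen. The snoRNA stretch carried GTTCGA.

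The values that set the tier are given as a description only. Signals ran from 88.05 to 106.39 with a median of 95.2, against 106.43 to 1433 (median 138.8) in the stronger tier and 75.5 to 88.03 (median 80.7) in the next tier. The first region of the weaker tier, at the promoter of sdc-2 on chromosome X, had 106.39, and the last region above it, at the promoter of dgk-2 on the same chromosome, had 106.43. At the lower end the last member, upstream of cel-1 and npp-14, had 88.05 and the first region outside, between genes on chromosome II, had 88.03. The bounds therefore fell between regions with nearly equal signals. The deposited q values of the members, which estimate a false discovery rate, ran from 0.111 to 0.382 with a median of 0.236. None of the 486 members had a pooled q of at most 0.05, which 1.69% of all candidates reached; the rule used this contrast, since all such regions ranked higher.

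The weaker tier is a narrow band of pooled signal, so a region high in 1 replicate tends by construction to be lower in the other, and the replicate ranks are given as a description. They are those of the best-ranked candidate that overlapped a region by at least 1 bp, and the pooled ranking they are set beside holds the reads of both replicates. The median rank of the members was 1048 in replicate 1 (lowest 13, highest 17365) and 1018 in replicate 2 (11 to 5488), against 312 and 316 in the stronger tier and 2037.5 and 1840 in the next tier. Among the members, 18 (3.70%, 95% interval 2.21 to 5.79) lay at the top of both replicates, taken as deep as the stronger tier is long. A further 89 lay at that depth in replicate 1 alone and 84 in replicate 2 alone, and 295 (60.7%, 56.2 to 65.1) lay deeper in both. Within that depth in both lay 67.6% of the stronger tier, 2.09% of the next tier and 1.95% of all candidates. Within the top 2000 candidates the picture was wider. There, 342 members (70.4%, 66.1 to 74.4) lay in both replicates, against 97.1% of the stronger tier, 15.4% of the next tier and 4.87% of all candidates. All 486 lay in the top 2000 of at least 1 replicate.

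**Figure D1:**
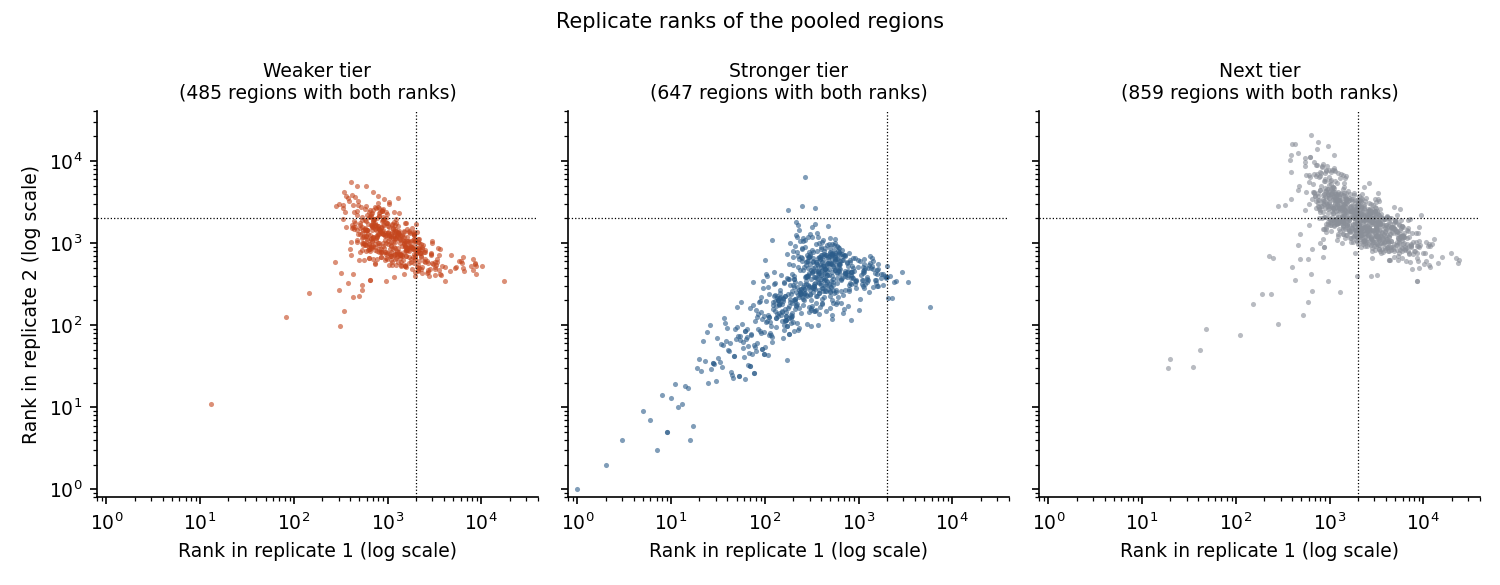
Rank in replicate 1 (x axis, log scale) against rank in replicate 2 (y axis, log scale) for the weaker tier (left), the stronger tier (middle) and the next tier (right), 1 point per region, with dotted lines at rank 2000. The band high in 1 replicate and lower in the other is expected from the narrow range of pooled signal that chose the weaker tier. Some of its points at better ranks in both overlap a stronger region, and others, such as coq-3 (650 and 356), do not.

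For the median member the worse of its replicate ranks was 2.02 times the better one, against 1.61 times in the stronger tier and 2.30 times in the next tier. In 84 of the 485 members with both ranks (17.3%) it was more than 4 times the better one, against 8.66% of the stronger tier and 26.3% of the next tier. Of the 84, 56 had replicate 2 ahead and 28 had replicate 1 ahead. The widest gap was in an intron of zfp-1, a chromatin-associated zinc-finger protein, with rank 17365 and signal 19.4 in replicate 1 and rank 348 and signal 74.9 in replicate 2. A region shared by the starts of unc-60, which encodes an actin-depolymerizing factor of muscle, and F53E2.2 had rank 10093 (23.7) in replicate 1 and 530 (65.1) in replicate 2. A region at cav-1, a caveolin gene, had rank 8815 (24.8) in replicate 1 and 421 (70.2) in replicate 2. All 3 were strong in replicate 2 and weak in replicate 1. A q of at most 0.05 was reached by 1.45% of the candidates of replicate 1, and 33 members overlapped one of these. In replicate 2 it was reached by 1.89% of the candidates, and 68 members overlapped one of these. Together these were 91 members, 10 of them in both replicates, and 72 of the 91 overlapped no stronger pooled region. The percentages are of each replicate's own list. The share of all pooled candidates that overlap such a region was not counted, so the member counts have no matching background.

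Some members were flanks of stronger regions. Of the 486, 22 (4.53%, 2.86 to 6.77) overlapped a stronger pooled region, 18 of them with the nearest such region in the stronger tier. The share was 3.68% in the stronger tier, 4.87% in the next tier and 14.1% over all candidates. A region further down the ranking has more stronger regions to overlap. This share therefore tends to rise down the ranking by construction, and its differences are not read as a trait of the tiers. Such a member can take over the replicate rank of its stronger neighbour. An example near a tRNA-Leu gene on chromosome X, at pooled rank 1116, had ranks 13 and 11 in replicates 1 and 2. Weaker neighbours were not counted.

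The shares of promoters and coding exons placed the weaker tier between its neighbours. Its promoter interval overlapped those of both, and its coding exon interval overlapped that of the next tier. The share of stretches between genes did not follow this order. A promoter, here from 1000 bp upstream to 200 bp downstream of a protein-coding transcript start, held the summit of 224 members (46.1%, 41.6 to 50.6), against 51.7% (47.8 to 55.6) of the stronger tier, 39.4% (36.2 to 42.8) of the next tier and 33.2% of all candidates. The same ranks of replicate 1 alone gave 42.0%, against 51.8% in the stronger and 40.95% in the next tier. Those of replicate 2 alone gave 47.3%, against 50.5% and 41.3%. Introns held 106 members (21.8%) and stretches between genes 105 (21.6%), against 21.8% and 22.9% of the stronger tier, 24.2% and 21.8% of the next tier, and 27.9% and 20.04% of all candidates. Coding exons set the stronger tier apart. They held 45 members (9.26%, 6.83 to 12.2), against 16 regions of the stronger tier (2.45%, 1.41 to 3.95), 11.9% of the next tier and 15.97% of all candidates. Each replicate alone gave the same order for coding exons, 10.9% against 2.15% in replicate 1 and 9.67% against 2.61% in replicate 2. UTR exons held 6 members (1.23%), against 1.23% of the stronger tier, 2.55% of the next tier and 2.84% of all candidates. The intervals reflect counting error alone, since regions do not stand for biological replicates.

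**Figure D2:**
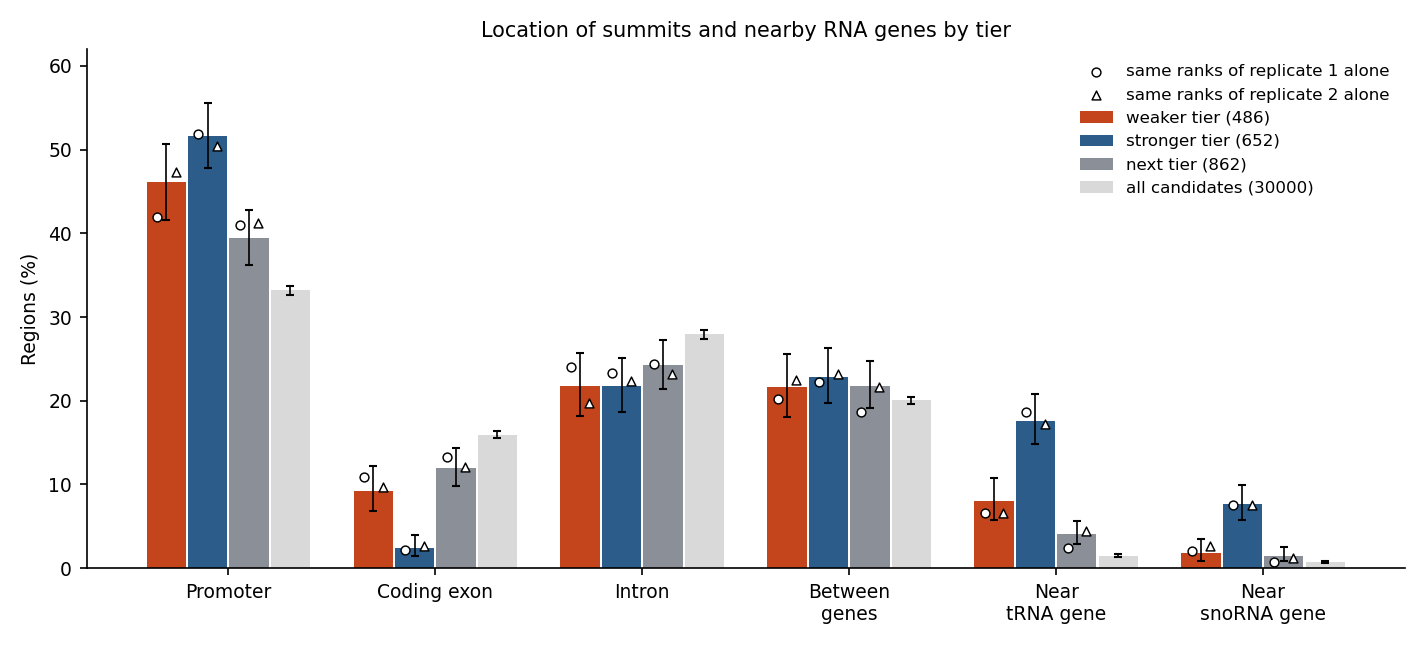
Share of regions (y axis, %) with the summit in each location or near a tRNA or snoRNA gene, for the weaker, stronger and next tiers and all candidates (bars; error bars are exact 95% intervals), with the same ranks of replicate 1 alone (circles) and replicate 2 alone (triangles). The weaker tier has 9.26% of summits in coding exons against 2.45% in the stronger tier, and 8.02% against 17.6% near tRNA genes.

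Within promoters, the summits of the weaker tier lay nearer to the start than those of the stronger tier and more often past it, close to the candidates as a whole. The median summit was 146 bp upstream of the nearest start, against 217 bp upstream in the stronger tier, 88.5 bp in the next tier and 137 bp over all candidates with a promoter summit. Of the 224 promoter members 172 were upstream of the start (76.8%, 70.7 to 82.2), against 94.4% (91.3 to 96.6) of 337 in the stronger tier, 73.2% (68.2 to 77.9) of 340 in the next tier and 71.7% over all candidates. Both replicates alone showed the difference from the stronger tier, 77.5% (71.1 to 83.0) against 93.2% (89.96 to 95.6) in replicate 1 and 80.9% (75.2 to 85.7) against 90.3% (86.5 to 93.3) in replicate 2. Within 100 bp of the start lay 36.6% (30.3 to 43.3) of the promoter members, against 20.8% (16.6 to 25.5) in the stronger tier, 43.5% in the next tier and 33.7% over all candidates. Replicate 1 alone gave 38.2% (31.5 to 45.3) against 18.3% (14.4 to 22.9) in the stronger tier. In replicate 2 alone the gap was smaller, 31.7% (25.8 to 38.2) against 24.0% (19.5 to 29.0), and the intervals overlapped. These distances were compared after the data were seen.

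**Figure D3:**
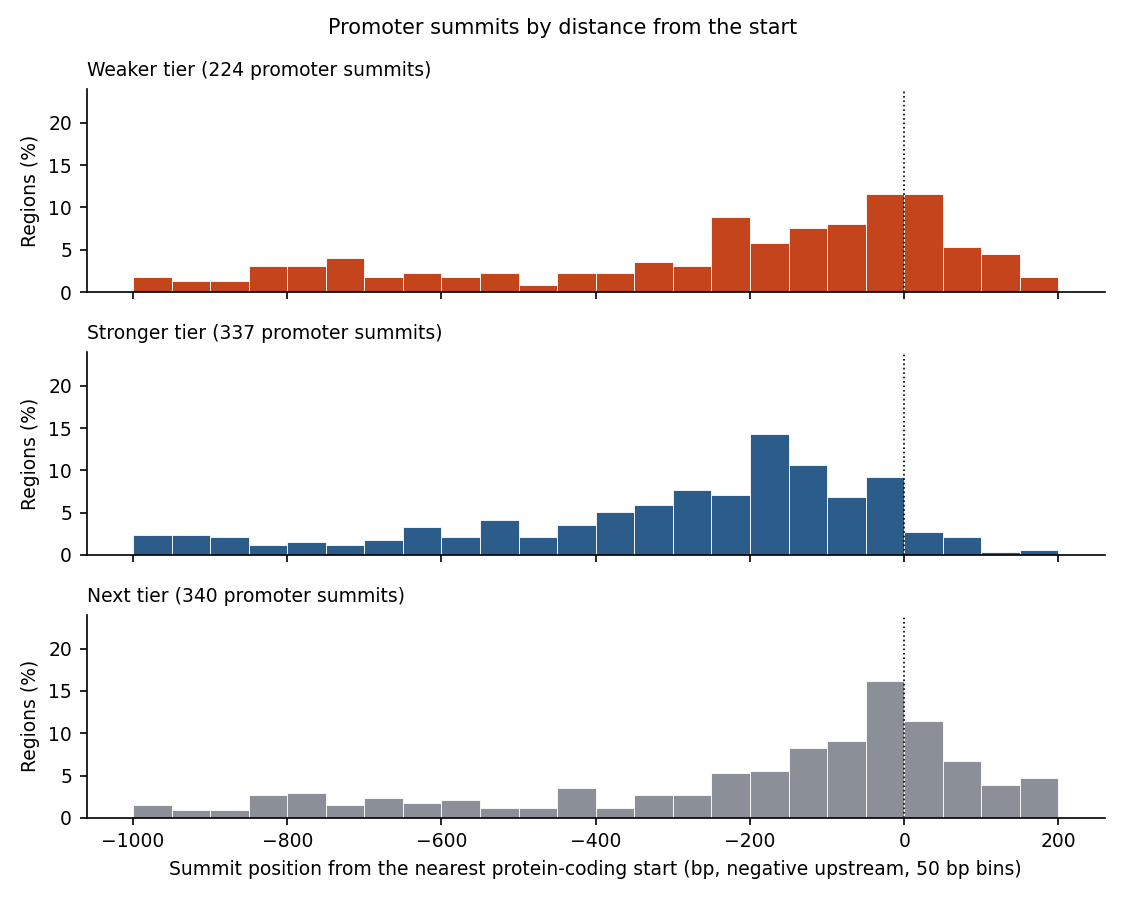
Position of promoter summits from the nearest protein-coding transcript start (x axis, bp, negative upstream, bins of 50 bp) as a share of promoter summits (y axis, %), for the weaker tier (top), the stronger tier (middle) and the next tier (bottom). Summits past the start, right of the dotted line, are frequent in the weaker tier and rare in the stronger tier, where 94.4% lie upstream.

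The promoter members belonged to 264 protein-coding genes, because 41 summits lay in the windows of 2 genes and 1 in those of 3. Of these genes, 14 (5.30%) also had a summit of the stronger tier in a promoter window, near the 5.21% of all protein-coding genes with a candidate there. The strongest promoter member lay 389 bp upstream of sdc-2, which directs the dosage compensation machinery to the X chromosomes of hermaphrodites. Its pooled signal was 106.39, and it had rank 534 (signal 53.9) in replicate 1 and rank 1333 (47.9) in replicate 2. The region 813 bp upstream of sms-2, a sphingomyelin synthase gene, had a pooled signal of 106.0 and ranks 532 and 1151. The region 350 bp upstream of ife-4, a cap-binding translation factor of the eIF4E family, had a pooled signal of 105.98 and ranks 928 and 630. Replicate 1 was ahead at sdc-2 and sms-2, and replicate 2 at ife-4. The promoter of klp-7, a microtubule-depolymerizing kinesin, was ranked nearly alike, at 637 (signal 50.8) in replicate 1 and 666 (59.7) in replicate 2, with the summit 235 bp upstream of the start.

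Among the 25 strongest promoter members that both replicates held in their top 2000, replicate 1 placed the best at rank 434 and the last at 1990, and replicate 2 the best at 265 and the last at 1490. They included vps-39, a vacuolar tethering factor (ranks 855 and 678), memb-1, a Golgi SNARE (1240 and 545), and wdfy-3, an autophagy adaptor (434 and 1490). Others were ddx-23, an RNA helicase of the spliceosome (701 and 929, summit past the start), smu-2, a splicing factor (944 and 784, summit 14 bp past the start), and fubl-2, which encodes an RNA-binding protein (1819 and 481). The set also held gsa-1, the stimulatory G protein alpha subunit (859 and 683), pxf-1, a guanine nucleotide exchange factor for Rap (1406 and 543), and vhp-1, a MAP kinase phosphatase (1990 and 765). It further held coq-3, of ubiquinone synthesis (650 and 356), and gob-1, a trehalose phosphatase (1212 and 633). Of the 25 regions, the one at T22C1.1 overlapped a stronger region.

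**Figure D4:**
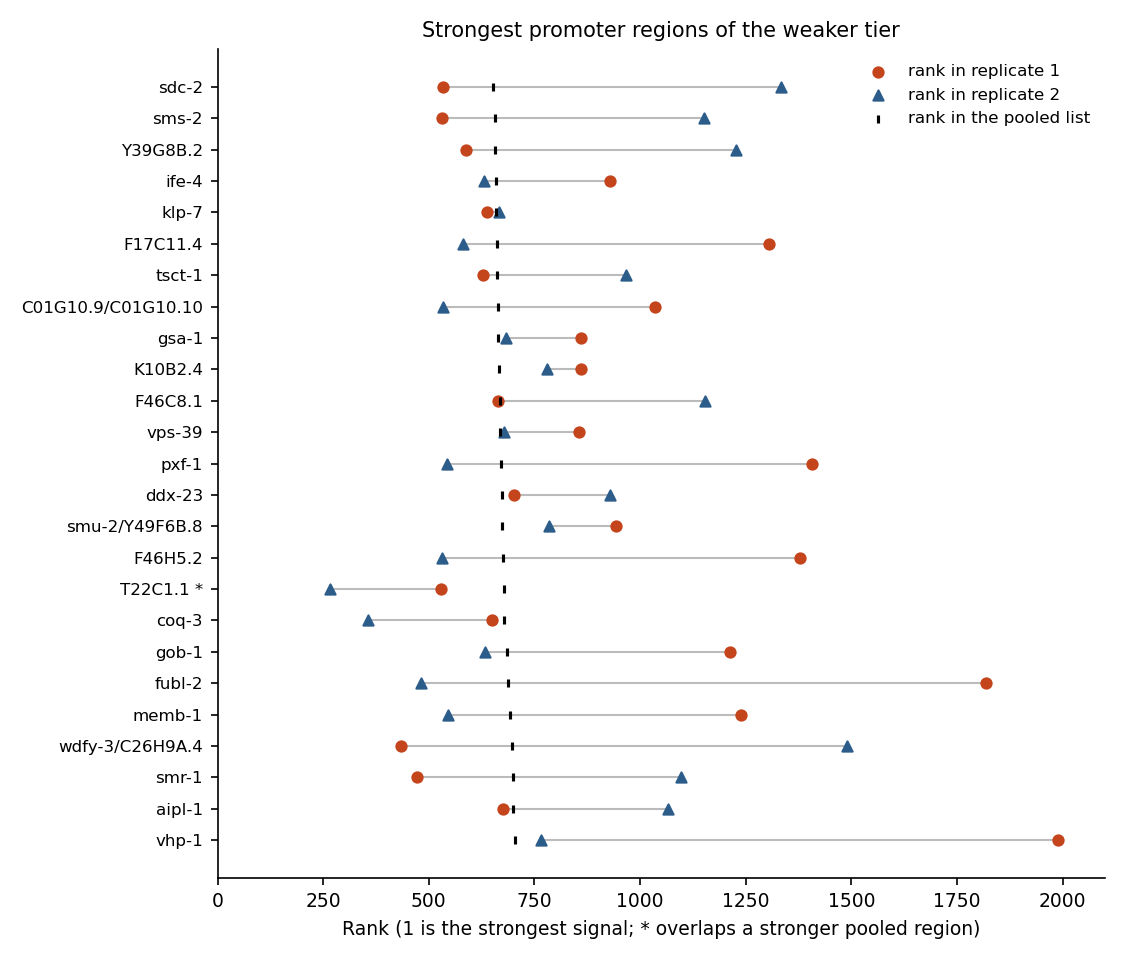
Rank in replicate 1 (circles), in replicate 2 (triangles) and in the pooled list (ticks) on the x axis for the 25 strongest promoter regions of the weaker tier that lay in the top 2000 of both replicates, in order of pooled rank from the top. The 2 replicates lie close together at klp-7 (637 and 666) and far apart at vhp-1 (1990 and 765) and fubl-2 (1819 and 481).

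Counted over lists of genes by tissue and function, the weaker tier touched few genes of any list. Of 7990 protein-coding genes with a candidate summit in the promoter window, 264 (3.30%) had a weaker-tier summit, 416 a stronger-tier summit and 407 a next-tier summit. The epidermis list had 4 genes of 21 with a candidate: sym-1, a leucine-rich repeat protein (replicate ranks 1614 and 814), elt-6, a GATA factor (2435 and 603), ajm-1, of the apical junction (2507 and 777), and hmp-1, alpha-catenin (6096 and 612). All 4 ranked better in replicate 2. The body wall muscle list had 3 of 28: pat-3, beta-integrin (1065 and 687), unc-15, paramyosin (536 and 310, overlapping a stronger region), and unc-60 (10093 and 530). The nuclear hormone receptor list had 3 of 92: nhr-48 (2445 and 768), nhr-1 (470 and 4959) and nhr-49, a regulator of fat metabolism (585 and 4893). The chaperones hsp-3, the endoplasmic reticulum BiP (427 and 1579), and enpl-1, the Grp94 of the same compartment (708 and 1919), were 2 of 28 in the heat shock and proteostasis list, and both ranked better in replicate 1.

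Lists with 1 gene were those of sex determination and dosage compensation, with sdc-2 of 23, and of translation factors, with ife-4 of 28. Further single genes were rgef-1, a Ras exchange factor of neurons, of 20 pan-neuronal genes (4067 and 505), mex-3, an RNA-binding regulator of the early embryo, of 14 germline genes (2113 and 466), unc-62, the Meis-type Hox cofactor, of 7 (822 and 2390), ceh-27, of 32 ceh homeobox genes (1025 and 1221), his-37, a histone gene, of 25 (404 and 706, overlapping a stronger region), and col-34, of 38 collagen genes (493 and 225, overlapping a stronger region). Of these 6, ceh-27 had the closest ranks among those that overlapped no stronger region. The lists for DM-domain genes (8 genes with a candidate), phasmid and head sensory neurons (3), cilium (14), axon guidance (24), pharynx (9), intestine (10), glia (8), ribosomal proteins (65), neuropeptides (48), aminoacyl-tRNA synthetases (23), splicing factors (23) and chemoreceptors (110) had 0 weaker-tier genes. The stronger tier had 7 of the 65 ribosomal protein genes, 6 of the 25 histone genes and 6 of the 110 chemoreceptor genes. Of all 7990 protein-coding genes with a candidate it had 416 (5.21%), and the chemoreceptors were near that share. The epidermis list was the one of the 24 lists whose exact interval (19.05%, 5.45 to 41.9) lay above the 3.30% of all genes. Its gene ajm-1 was counted although that summit also lay 27 bp downstream of a tRNA-Gln gene. The intervals were not adjusted for the number of lists, so no epidermal lean is read from this. That of the chemoreceptors (0 of 110) ended at 3.298%, just under it, and the intervals of the other 22 included it. The lists were chosen with earlier results known, and their genes were not tested against others.

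Introns of 98 genes held the 106 intronic members, and 8 genes held more than 1. daf-5, a Sno/Ski-type regulator of dauer formation, had 3, at pooled ranks 666 (replicate ranks 655 and 805), 782 (787 and 1015) and 1055 (996 and 2232). daf-12, a nuclear hormone receptor of the same pathway, had 2, at ranks 768 (988 and 755) and 882 (848 and 1324). mig-10, an adaptor in cell migration and axon guidance, had 2, at ranks 815 (984 and 1334) and 1123 (1706 and 1366). The 5 strongest intronic members away from structural RNA genes lay in lin-2, a CASK-type scaffold of vulval signalling (2095 and 462), rnp-8, an RNA-binding partner of a germline poly(A) polymerase (1109 and 596), daf-5, pad-1 (1524 and 529) and lit-1, a Nemo-like kinase of Wnt signalling (511 and 789). Among coding exon members away from structural RNA genes the strongest were in Y43F8C.6 (1119 and 544) and in an exon position shared by dpy-4, a cuticle collagen, and atln-2, an atlastin (692 and 1184), followed by cutl-24 (810 and 781), fax-1, a nuclear hormone receptor of neurons (1774 and 636), and W05F2.7 (1150 and 852). Intron and exon examples were picked after the locations were known.

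Transfer RNA genes, which RNA polymerase III transcribes from promoters inside the gene, lay within 500 bp of 39 members (8.02%, 5.77 to 10.8), against 17.6% (14.8 to 20.8) of the stronger tier, 4.06% (2.84 to 5.60) of the next tier and 1.50% of all candidates. The replicates alone each gave 6.58% at the same ranks. The 39 members lay near 51 tRNA genes, 9 of which (17.6%) were also within 500 bp of a stronger-tier summit, against 21.9% of all 634 tRNA genes. The 38 nuclear ones covered 16 isotypes by their nearest gene, led by tRNA-Glu with 5 and by tRNA-Ala, tRNA-Arg and tRNA-Lys with 4 each. The strongest was 67 bp upstream of a tRNA-Ala gene in an intron on chromosome II, with a pooled signal of 105.88 and ranks 546 and 990. It was followed by a region 74 bp upstream of a tRNA-Lys gene (402 and 848) and one downstream of a tRNA-Arg gene on chromosome X (738 and 901).

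Summits inside the tRNA gene made up a smaller share than in the stronger tier. Positions were not checked in the replicates alone, and members that overlap a stronger region were kept. Of the 38 nuclear members, 10 (26.3%) had the summit inside the nearest tRNA gene, 16 (42.1%, 26.3 to 59.2) upstream of it and 12 downstream. In the stronger tier 61 (56.5%) were inside, 26 (24.1%, 16.37 to 33.3) upstream and 21 downstream. The upstream intervals of these 2 tiers overlapped. In the next tier 10 of 35 (28.6%) were inside, 5 (14.3%, 4.81 to 30.3) upstream and 20 downstream. The B box part GTTCGA was found in 22 of the 39 members near tRNA genes (56.4%, 39.6 to 72.2), against 64.3% (54.9 to 73.1) of those of the stronger tier, 54.3% of those of the next tier and 47.1% of all candidates near tRNA genes. Away from structural RNA genes (tRNA, snoRNA, snRNA and rRNA genes) its share was 5.03%, 6.21%, 7.53% and 7.18% in the same order. GTTCGA thus also occurred without such a gene nearby, and a match alone does not place the window on one. Near tRNA genes the order against the stronger tier turned in replicate 1 alone (68.8% against 65.6%), and that against the next tier in replicate 2 alone (53.1% against 55.3%).

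The X chromosome held 16 of the 39 members near tRNA genes (41.0%, 25.6 to 57.9), against 45.2% in the stronger tier, 7 of 35 in the next tier and 38.7% of all candidates near tRNA genes. The replicates alone did not keep it ahead of the next tier, with 28.1% against 28.6% in replicate 1 and 34.4% against 36.8% in replicate 2. Away from structural RNA genes the X held 84 of 437 members (19.2%, 15.6 to 23.2), against 18.8% in the stronger tier, 19.6% in the next tier and 15.8% of all candidates. In all, 102 members (20.99%) were on X, 86 on III, 85 on IV, 76 on I, 74 on II and 62 on V, and 1 was mitochondrial. That one had no overlapping candidate in replicate 1 and rank 94 in replicate 2, and it overlapped a stronger region of the pooled list.

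Genes of snoRNAs, which guide chemical modification of other RNAs, were much thinner in the weaker tier: 9 members (1.85%, 0.850 to 3.49) had one within 500 bp, against 50 regions (7.67%, 5.75 to 9.99) of the stronger tier, 13 (1.51%, 0.805 to 2.57) of the next tier and 0.767% of all candidates. Replicate 1 alone gave 2.06% against 7.52% and replicate 2 alone 2.67% against 7.52%. Of the 9, 7 were among the first 162 members, 1 among the middle 162 and 1 among the last 162. The summit was upstream of the snoRNA gene in 8 of the 9, as in 42 of 50 of the stronger tier. The strongest was 59 bp upstream of ZK546.18, with a pooled signal of 104.23 and ranks 727 and 557. It was followed by regions 17 bp upstream of F12F6.11 (647 and 1242), 11 bp upstream of C53B7.8 (421 and 1645), 60 bp upstream of Y37E3.20 (695 and 1189) and 163 bp upstream of M7.15 (907 and 861). Of the 9 snoRNA genes, 0 also had a stronger-tier summit within 500 bp, against 14.7% of all 346 snoRNA genes, and so few genes allow a share of up to 33.6%. GTTCGA was found in 3 of the 9 windows, in 19 of 50 of the stronger tier and in 1 of 13 of the next tier. Over all candidates near snoRNA genes it was found in 32 of 230 (13.9%).

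MicroRNA genes lay within 500 bp of 7 members (1.44%, 0.581 to 2.945), against 10 regions (1.53%) of the stronger tier, 8 (0.928%) of the next tier and 0.483% of all candidates. In all 7 the summit was upstream of the hairpin, with a median distance of 215 bp. The strongest lay 9 bp upstream of mir-53, with a pooled signal of 105.49 and ranks 665 and 920. The others were at mir-58a, of the bantam-related family (1956 and 443), mir-73 (1371 and 738), mir-49 (484 and 2927), mir-87 (842 and 849), mir-71, known for its part in life span (689 and 1453), and mir-1, the conserved muscle microRNA (2040 and 1382). The ranks were closest at mir-87 and widest apart at mir-49. One member lay near an snRNA gene, F36A4.23 (1295 and 3580), and 0 members near an rRNA gene, which allows a share of up to 0.756% by the exact upper bound.

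Of the 5 short sequences searched within 100 bp of the summit, GAGAGA was the most frequent. It was found in 198 members (40.7%, 36.3 to 45.3), against 36.04% (32.4 to 39.9) of the stronger tier, 27.7% (24.8 to 30.8) of the next tier and 15.5% of all candidates. The replicates alone did not keep the weaker tier ahead of the stronger one: the shares were 32.7% against 36.2% in replicate 1 and 35.2% against 38.96% in replicate 2. Both kept it above the next tier, at 25.4% in replicate 1 and 31.0% in replicate 2, and in replicate 2 the intervals overlapped. By location, GAGAGA was found in 50.9% (41.1 to 60.8) of the 106 intronic members and 50.5% of the 105 between genes, 37.9% of the 224 in promoters and 11.1% of the 45 in coding exons. In introns the share was 38.7% (30.7 to 47.3) in the stronger tier, 26.8% (20.9 to 33.3) in the next tier and 13.0% over all candidates. The lead of the intronic members over the stronger tier turned in both replicates alone, at 35.9% against 37.5% in replicate 1 and 37.5% against 44.5% in replicate 2. Of the 485 occurrences in the members, 52.6% lay within 50 bp of the summit. GA runs of 12 bases or more were found in 24 members (4.94%), 4.75% of the stronger tier, 1.74% of the next tier and 0.990% of all candidates.

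The 6-mers CGCACA and GCGCGC were less frequent than in the stronger tier. CGCACA was found in 51 members (10.5%, 7.91 to 13.6), against 21.01% (17.95 to 24.3) in the stronger tier, 8.12% (6.38 to 10.2) in the next tier and 6.14% of all candidates. The replicates alone gave 11.1% against 18.4% in replicate 1 and 10.9% against 21.2% in replicate 2. GCGCGC was found in 41 members (8.44%, 6.12 to 11.3), against 15.6% (12.9 to 18.7) in the stronger tier, 5.34% in the next tier and 3.29% of all candidates. The DM core ACATTGT was found in 10 members (2.06%, 0.991 to 3.75), against 2.91% of the stronger tier, 3.02% of the next tier and 2.76% of all candidates. Its share in the weaker tier was thus near that of the candidates as a whole. Mean GC content of the windows was 47.1% in the weaker tier, 47.1% in the stronger tier, 45.7% in the next tier and 39.8% over all candidates, and its part in the shares of these sequences was not tested.

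The weaker tier was also divided by pooled rank into its first, middle and last 162 regions. The share in the top 2000 of both replicates was 81.5%, 66.7% and 63.0%, an order that the pooled ranking itself favours. The share of promoters was 53.7% (45.7 to 61.6), 41.98% and 42.6% (34.9 to 50.6). The share of coding exons was 6.17% (2.9995 to 11.1), 8.02% and 13.6% (8.71 to 19.8). CGCACA was found in 13.6% (8.71 to 19.8), 11.1% and 6.79% (3.44 to 11.8), and GAGAGA in 41.4%, 42.6% and 38.3%. The X chromosome held 26.5% (19.9 to 34.04), 20.4% and 16.05% (10.8 to 22.6), and summits near tRNA genes made up 8.02%, 6.17% and 9.88%. Apart from the replicate share, the intervals of the first and the last 162 regions overlapped for each of these.

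Near the loci that the strain alters, a few regions were of the weaker tier, which makes up 1.62% of all candidates. Within 50 kb of dmd-4 (chrX:14857303-14861852), 51 candidates were found, 2 of the weaker tier (3.92%, 0.478 to 13.5), 7 of the stronger and 3 of the next. The 2 weaker-tier regions were one at the starts of C27C12.1 and C27C12.4 (pooled signal 95.02, ranks 1529 and 934) and one in an intron of mbk-1, a kinase gene (89.9, ranks 1515 and 1358). At unc-119, mutated in the strain, 1 of 44 candidates within the same distance was a member (2.27%), 1 was of the stronger tier and 0 of the next. The member lay in an intron of the gene (chrIII:10903301-10903750) with a pooled signal of 102.0 and ranks 1227 and 660. Copies of either gene on the transgene and at the home locus cannot be told apart by position.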

How the data were processed

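ChIP-seq regions of 2 biological replicates (1 group) were analysed from narrowPeak lists. The authors deposited, for ce11 and ce10, 30000 candidates per replicate, 30000 of both replicates pooled and the IDR short list, each with a signal value relative to a control per the deposited file listing. The pooled and short lists give a −log10 q per region as deposited by the authors. In each replicate's list that column served only to find regions with q of at most 0.05 and the members that overlap them. Which aligner and peak caller made the lists, and at what IDR threshold, is not given in the sources used here. Depth is unknown, because no read counts are in the lists. Candidates were ranked by deposited signal, with 0 tied values. The weaker tier is ranks 653 to 1138, the stronger tier ranks 1 to 652 and the next tier ranks 1139 to 2000. Equal parts of the weaker tier are ranks 653 to 814, 815 to 976 and 977 to 1138.

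Python 3.11.15, numpy 2.4.6, pandas 2.3.3, scipy 1.17.1 and matplotlib 3.10.9 were used. Summits were placed on Ensembl release 115 genes, with the order promoter, coding exon, UTR exon, intron, between genes; tRNA isotypes came from RefSeq (607 genes). Shares carry exact Clopper-Pearson 95% intervals, and no hypothesis test was run. The same ranks of each replicate alone served as the replicate check. The functions recovered every planted position, sequence, rank and distance on simulated data.

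Members, gene lists and short sequences were chosen with earlier results of these data known. Named were the 25 strongest promoter members in the top 2000 of both replicates, up to 5 per RNA class, up to 4 per gene list, members near dmd-4 and unc-119, those at the rank bounds, those lacking a candidate in 1 replicate or with the 3 largest rank ratios, and mitochondrial ones. The matching tolerance between builds, promoter distances, sub-ranges, isotypes, GTTCGA near RNA genes, GAGAGA by location, GA runs, intron and exon examples, the remaining tRNA, snoRNA and miRNA members beyond the rule, rank ratios by tier, the shares over all genes set beside overlaps, and the sequence of F17C11.4 were added after the data were seen.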

Additional observations from a re-analysis of the deposited data

How the results depend on the processing

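Of 65 alternative values for 10 shares, 49 stayed inside the exact interval of the share as reported and 16 did not. The order of the tiers turned for GAGAGA in both replicates alone (32.7% in the weaker against 36.2% in the stronger tier, and 35.2% against 38.96%). It also turned for CGCACA within 50 bp (3.91% in the weaker against 5.22% in the next tier). The pooled share on chromosome X, 20.99% against 19.4% in the next tier, turned in both replicates alone. It was 19.5% against 20.2% in replicate 1 and 19.5% against 20.65% in replicate 2. The share in the top 2000 of both replicates (70.4%) was 78.6% for its stronger 243 members, 62.1% for its weaker 243 and 59.7% when the replicate summit had to lie within 100 bp. The promoter share (46.1%) was 33.1% with a window of 500 bp upstream to 100 bp downstream and 60.3% with 2000 bp to 500 bp. The stronger tier then had 40.03% and 65.3%, and the next tier 29.2% and 59.4%, near the weaker tier at the widest window. The coding exon share (9.26%) was 6.58% for the stronger 243 members and 6.17% with the widest promoter window. GAGAGA (40.7%) was found in 25.7% within 50 bp and 55.8% within 200 bp of the summit, and in 32.7% to 35.2% with 1 replicate left out, an alternative added after seeing the data. CGCACA (10.5%) was found in 3.91% within 50 bp, 17.1% within 200 bp and 7.82% for the weaker 243 members. A stronger summit within 1000 bp (6.38% of members) was found for 1.94% once overlapping members were left out, and for 18.5% within 5000 bp. Over all candidates the shares were 26.6% within 1000 bp and 73.02% within 5000 bp, where regions further down have more stronger regions around them by construction. With 1 replicate left out, promoters ranged from 42.0% to 47.3%, coding exons from 9.67% to 10.9%, tRNA genes were at 6.58% in both cases, structural RNA genes ranged from 9.05% to 9.88%, and upstream summits (added after seeing the data) from 77.5% to 80.9%. No paired analysis was possible because there is 1 group. Depth is unknown, so no limit from depth could be given.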
